A study of Mus musculus with 2 samples.

Results

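Genes that make, break down or sense histamine, or that restrain fat breakdown, were followed through the cell types of the mouse lung: *Hdc*, *Hnmt*, *Hrh1*, *Hrh2* and *G0s2*, which are 5 of the 32285 genes in the count tables. They were chosen on measured values, because UMIs of *Hdc* and *G0s2* had already been seen in alveolar type 2 (AT2) cells of these libraries, so all levels are given as a description with no test. Lung cells of *Cebpa* fl/fl mice (label FF) were compared with those of *Cebpa* ΔSftpc mice (label KO), by droplet scRNA-Seq of 1 library per genotype. Both carry the same loxP-flanked *Cebpa* alleles, and the KO mice also carry Sftpc-CreERT2, in which the promoter of *Sftpc*, a surfactant protein gene, drives a tamoxifen-dependent Cre in AT2 cells. Mice of mixed backgrounds, aged 3 months at the start unless stated otherwise, had 5 daily injections of 75 mg/kg tamoxifen, and lungs were taken 26 weeks after the first. Per the methods, mice analysed later than 3 months from that treatment also had weekly tamoxifen injections, which applies to both groups here. The methods name 3 mice per genotype, but barcodes carry no mark of the mouse, so each genotype is 1 sample and all intervals below are 95% intervals that cover counting error only.

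Histamine is made from histidine in a single step by histidine decarboxylase, the product of *Hdc*. Mast cells and basophils store the amine in granules, and neutrophils can make it on demand. It is inactivated inside cells by the methyltransferase encoded by *Hnmt* and outside them by diamine oxidase, the product of *Aoc1*. *Hrh1* and *Hrh2* encode G protein-coupled receptors that act in vessels, smooth muscle and leukocytes. *G0s2* encodes a small protein that binds and inhibits adipose triglyceride lipase, the product of *Pnpla2*, which takes the first fatty acid off stored fat. C/EBPα, the factor targeted for deletion here, is a regulator of both AT2 and myeloid cell identity.

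After removal of barcodes with fewer than 200 genes or more than 20% mitochondrial UMIs, the FF library held 11487 cells with 68802017 UMIs (median 4835 per cell) and the KO library 13238 cells with 64452208 UMIs (median 2607). The libraries shared 45 barcodes. Cells were gated by markers that did not include the 5 genes, with 658 FF and 766 KO cells left without a type and 36 and 162 tied between types. AT2 markers (8 of 8), ciliated markers (9 of 9) and basophil markers (9 of 9) were all higher inside their gate than outside it in both libraries, and so were 10 of 10 neutrophil markers in KO and 9 of 10 in FF, where *Il1r2* was at 0, a check that the gate itself favours. The targeted gene, *Cebpa*, was at 154 CPM (UMIs per 1000000 UMIs of the same cells) in FF and 113 CPM in KO AT2 cells, a log2 ratio of -0.44 (-0.66 to -0.23). Whether its 3′ reads lie in the deleted part was not given in the sources used here. The AT2 gate uses *Sftpc* and *Abca3*, and the paper reports weaker staining of both proteins in lineage-traced cells after the deletion. KO cells that kept AT2 markers were thus favoured, and deletion in the gated cells was not tested. Depth differed between genotypes: the median AT2 cell held 21020 UMIs in FF and 1458 in KO, and the median ciliated cell 16530 and 1434. Values from cells of like depth therefore stand beside the ratios.

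*Hdc* lies on the minus strand of chr2:126593667-126619299 (GRCm38, 12 exons), and *G0s2* on the minus strand of chr1:193272161-193273217 (2 exons). Among KO gates of at least 30 cells both genes were highest in granulocytes, which were not the target of the Cre. The bases just before their starts are shown because a C/EBP factor was targeted for deletion in AT2 cells. They come from RefSeq (GRCm38.p6), run 5′ to 3′ on the minus strand, and end just before the start of the coding transcript in GENCODE. A noncoding transcript of *Hdc* starts farther upstream and has the window in its intron, and *Lamb3*, a laminin gene, overlaps *G0s2* on the other strand. Capitals mark the GC box GGGCGG (or CCGCCC on the other strand), and a C/EBP-type pattern, TTNNGNAA or its reverse complement TTNCNNAA, was searched in the same windows.
*Hdc*, chr2:126618679-126618928: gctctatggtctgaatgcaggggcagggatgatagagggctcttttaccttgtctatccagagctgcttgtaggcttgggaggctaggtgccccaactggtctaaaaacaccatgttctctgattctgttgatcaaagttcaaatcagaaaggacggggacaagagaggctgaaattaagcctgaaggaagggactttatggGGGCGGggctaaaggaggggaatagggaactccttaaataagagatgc
*G0s2*, chr1:193273218-193273438: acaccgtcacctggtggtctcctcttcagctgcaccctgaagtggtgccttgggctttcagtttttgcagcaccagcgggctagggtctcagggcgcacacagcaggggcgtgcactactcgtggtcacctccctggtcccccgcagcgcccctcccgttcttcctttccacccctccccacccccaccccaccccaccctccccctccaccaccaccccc
The *Hdc* window held 1 GC box, which began 48 bases before its end, and no match to the C/EBP-type pattern. No match to either pattern was found in the 221 bases before *G0s2*. Among 32526 promoter windows of 250 bases, 36.8% held the C/EBP-type pattern and 33.0% the GC box, so neither is rare. A pattern not found says only that these letters are not in the window.

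*Hdc*, the histamine-forming enzyme, was concentrated in different cells in the libraries. In FF, 70.04% of its 2777 UMIs were in ciliated cells and 11.9% in AT2 cells. In KO, 53.4% of its 5268 UMIs were in neutrophils, 11.2% in ciliated cells, 10.3% in basophils and 2.09% in AT2 cells. The numbers of leukocytes differed with it, under gates whose cuts differed between the libraries: 4 FF and 630 KO cells passed the neutrophil gate, and 11 and 99 the basophil gate.

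Basophils held the highest level among gates of at least 2 cells. Their *Hdc* was 1268 CPM (1029 to 1545) in FF, from 98 UMIs in 11 cells, and 1490 CPM (1367 to 1621) in KO, from 543 UMIs in 99 cells. All 11 FF basophils and 71 of 99 KO basophils had at least 1 *Hdc* UMI. Only 1 cell passed the mast cell gate, in FF, and it held 22 *Hdc* UMIs among 3905. Among gates of at least 30 cells, *Slc18a2*, the vesicular transporter that loads histamine into granules, was highest in KO in basophils (250 CPM, 91 UMIs). In FF, where the 11 basophils and the mast cell were too few to be ranked, it was highest in platelets and megakaryocytes (39.6 CPM). *Hrh4*, a histamine receptor of leukocytes, had 4 UMIs in KO, all in basophils, and 1 UMI in FF.

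Neutrophils followed. KO neutrophils held 2812 *Hdc* UMIs (1158 CPM, 1115 to 1201), with a UMI in 437 of 630 cells (69.4%) and at most 51 in a cell. Of the 4 FF neutrophils, 1 held all 6 *Hdc* UMIs (644 CPM, 236 to 1402) and all 10 *G0s2* UMIs. The log2 ratio of KO over FF was 0.85 (-0.28 to 2.29) for *Hdc* and 0.65 (-0.23 to 1.71) for *G0s2*, intervals that include 0. Without that cell in FF, and without the KO cell richest in the gene, the ratios were 0.21 and 0.74 against the floor of 3 counts. A looser gate, with 7 FF and 799 KO cells, gave 2.16 (1.18 to 3.38) and 2.32 (1.44 to 3.38), and the gate at 8 times the library share of each marker, with 5 and 579 cells, gave 1.4046 (0.28 to 2.85) and 1.17 (0.29 to 2.23). These intervals lay above 0 but rest on 6 to 10 FF UMIs. Within KO both were highest in the 205 neutrophils of 3000 to 10000 UMIs, at 1700 CPM (1621 to 1782) *Hdc* and 2562 CPM (2465 to 2662) *G0s2*. The 372 shallower cells held 705 CPM (636 to 779) and 815 CPM (741 to 894), and the 53 deeper ones 795.5 CPM (737 to 858) and 1184 CPM (1112 to 1259). Within KO, the 143 neutrophils with a UMI of the chemokine genes *Ccl3* or *Ccl4* held 1188 CPM *Hdc* and 1440 CPM *G0s2*, and the other 487 held 1142 and 1810 CPM, with median depths of 4041 and 1847 UMIs. The *Hdc* intervals of these sets overlapped (1115 to 1265 and 1091 to 1196), and the *G0s2* intervals did not (1359 to 1524 and 1745 to 1877).

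**Figure D1:**
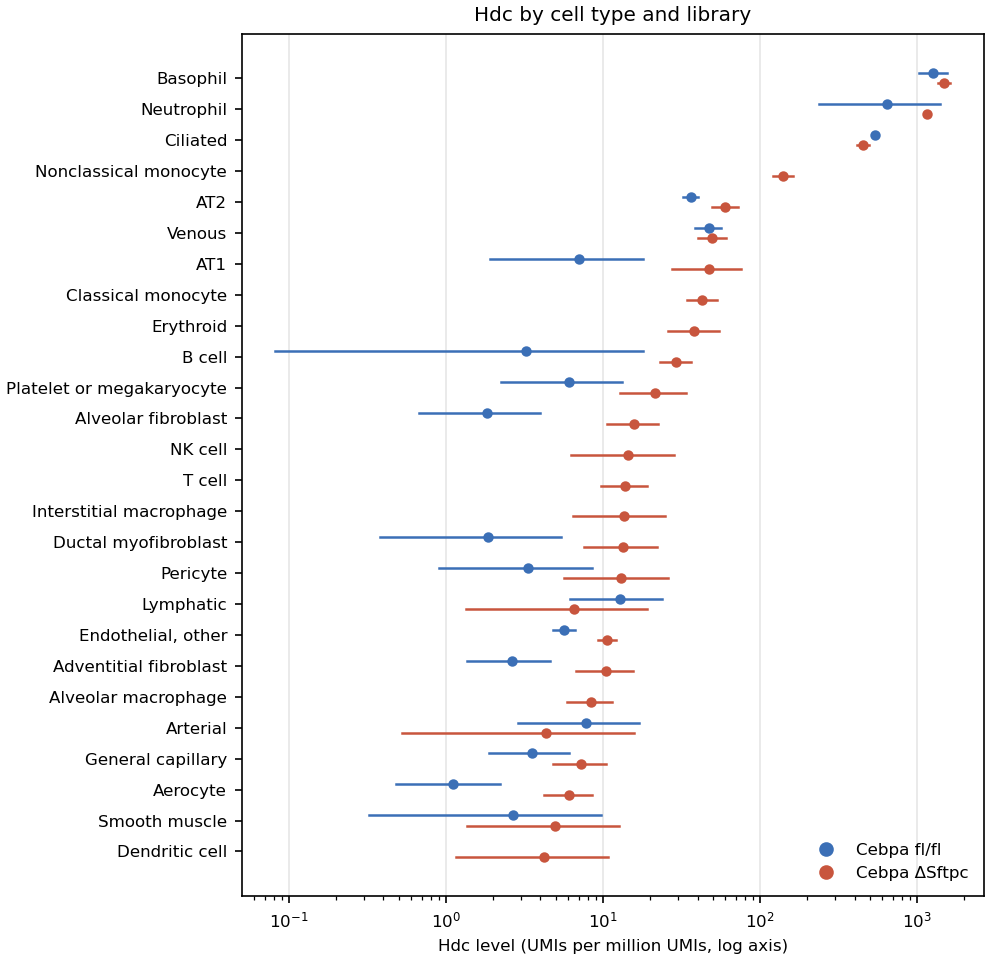
*Hdc* level in each gated cell type in CPM on a log axis, in the *Cebpa* fl/fl library (blue) and the *Cebpa* ΔSftpc library (red), for gates of at least 30 cells plus basophils and neutrophils. Points are summed counts over all cells of the gate and bars their exact Poisson 95% intervals. Basophils, neutrophils and ciliated cells stood above all other types, and AT2 and venous endothelial cells held the next levels in FF.

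Ciliated cells, which move mucus over the airways, were the highest type in FF among gates of at least 30 cells. They held 1945 *Hdc* UMIs in FF (542.5 CPM, 519 to 567) and 592 in KO (453 CPM, 417 to 491). In FF, 208 of 215 ciliated cells had an *Hdc* UMI, the median cell held 9, and the richest cell held 1.34% of the total. In KO, 151 of 339 had one, the median cell held 0, and the richest held 46. When cells were thinned to 1000 UMIs each, the share with an *Hdc* UMI was 41.5% (34.8 to 48.5) in FF and 32.2% (26.7 to 38.1) in KO, against 0.537% and 2.88% in alveolar fibroblasts, a type not known to make histamine. In FF ciliated cells the 10 neutrophil markers summed to 10 UMIs (2.79 CPM, 5 markers at 0) beside 1945 of *Hdc*. Of the 9 basophil markers 6 were at 0 in FF and 1 in KO ciliated cells, and *Mcpt8*, a basophil protease gene, was at 0 in FF. In KO ciliated cells the neutrophil list summed to 554 UMIs (424 CPM, 0 of 10 at 0), with a marker UMI in 51.9% of cells, *Ptprc*, which encodes the leukocyte surface protein CD45, had 117 UMIs and *Mcpt8* 15, beside 592 of *Hdc*. In the ciliated cells with no UMI of *Ptprc* or a neutrophil marker (203 FF, 137 KO) the log2 ratio was -0.28 (-0.53 to -0.03).

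The log2 ratio for ciliated *Hdc* was -0.26 (-0.40 to -0.13), and in this gate 7.38% of 9271 genes with at least 50 UMIs differed by 2-fold or more, *Hdc* not among them. The median gene stood at -0.13, and the ratio relative to it was -0.13 (-0.27 to 0.00). In cells of at least 10000 UMIs (183 FF, 29 KO), *Hdc* was 539 CPM in FF and 529 CPM in KO, a log2 ratio of -0.03 (-0.19 to 0.13). In cells of 3000 to 10000 UMIs (25 and 32), it was 609 and 369 CPM, and in the 278 KO cells under 3000 UMIs it was 337 CPM. The lower KO level thus lay in the shallower cells. Each of the 9 ciliated markers was lower in KO too, and the list summed to 12990 CPM in FF and 9331 CPM in KO. For each 100 UMIs of that list there were 4.17 *Hdc* UMIs in FF and 4.85 in KO. Relative to the ciliated markers, *Hdc* was thus not lower in KO. *Scgb1a1*, the main club cell gene, was at 3408 CPM in FF and 49480 CPM in KO ciliated cells, and 3 FF cells and 1 KO cell took 5% or more of their UMIs from secretoglobin genes. Without those cells the ratio was -0.19 (-0.33 to -0.06).

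AT2 cells, the surfactant-making cells that the Cre targets, held a lower but clear *Hdc* level. There were 331 UMIs in 453 FF cells (36.3 CPM, 32.5 to 40.45) and 110 UMIs in 416 KO cells (59.9 CPM, 49.2 to 72.1). In FF, 170 cells had an *Hdc* UMI, 93 of them exactly 1 and 8 of them 5 or more, and the 10 richest cells held 21.8% of the UMIs. In KO, 60 cells had one and the 10 richest held 39.1%. After thinning to 1000 UMIs the shares were 2.91% (1.56 to 4.92) in FF and 5.0% (2.94 to 7.89) in KO. The same shares in alveolar fibroblasts, whose median cells held 5322 and 2188 UMIs, were 0.537% (0.111 to 1.56) and 2.88% (1.496 to 4.97), so by shares alone KO AT2 cells could not be told apart from fibroblasts. AT1 cells, the flat cells beside them, held 7.04 CPM (1.92 to 18.03) in FF, with an interval below that of AT2 cells. It stood next to venous endothelium, at 47.1 CPM (38.6 to 56.8), with overlapping intervals. In KO the order was AT2, venous endothelium, AT1 (47.3 CPM, 27.6 to 75.8) and classical monocytes (43.0 CPM, 34.3 to 53.2), with neighbours that overlapped.

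Markers of the other *Hdc*-rich types were read beside the AT2 value over their whole lists. For each 100 UMIs of the ciliated list, AT2 cells held 28.05 *Hdc* UMIs in FF and 45.8 in KO, and ciliated cells 4.17 and 4.85. For each 100 UMIs of the neutrophil list, KO AT2 cells held 5.65 *Hdc* UMIs, KO neutrophils 0.976, and KO alveolar fibroblasts and endothelial cells of no subtype 3.23 and 2.44. FF AT2 cells held 331 *Hdc* UMIs beside 28 of the neutrophil list. In them 4 of 10 neutrophil markers were at 0 (*Mmp9*, *Il1r2*, *Stfa2l1* and *Trem1*) and the list summed to 3.07 CPM, against 0 of 10 and 1060 CPM in KO. The ciliated list summed to 129.5 CPM in FF and 131 CPM in KO, with 0 of 9 at 0, and a marker UMI was in 81.0% of FF and 24.8% of KO AT2 cells. In FF *Sec14l3* and *Dynlrb2* held 708 and 300 of its 1180 UMIs, and *Foxj1*, the ciliated cell regulator, 14. Of the 9 basophil markers 4 were at 0 in FF and 3 in KO, and of the 9 mast cell markers 7 and 5, including the mast cell proteases *Tpsb2*, *Tpsab1* and *Cma1* in both.

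KO AT2 cells held more UMIs of leukocyte markers than FF AT2 cells. *Ptprc* had 2 UMIs in FF and 115 in KO, and 22 FF but 251 KO AT2 cells had a UMI of a neutrophil marker. In KO, *S100a8* and *S100a9* held 755 and 965 of the 1948 UMIs of the neutrophil list. The paper reports this pair as the most overexpressed genes in AT2 cells of the *Cebpa* ΔSftpc mice. Whether these UMIs came from AT2 cells or from leukocytes was not tested. The sets and the scaling below treat them as leukocyte RNA. AT2 cells with no UMI of *Ptprc* or of a neutrophil marker numbered 429 in FF and 148 in KO, with 314 and 23 *Hdc* UMIs. They were not matched for depth. A set also free of ciliated, basophil and mast cell markers (*Gata2* and *Kit* aside) had median depths of 16440 UMIs in FF and 1227 in KO. There *Hdc* was 24.9 CPM (16.8 to 35.5) in 80 FF cells and 94.6 CPM (55.1 to 151.5) in 113 KO cells, from 30 and 17 UMIs. In the first set the *Hdc* log2 ratio was 0.76 (0.08 to 1.37), beside 0.72 (0.40 to 1.04) over all AT2 cells. It was larger in AT1 cells (2.75, 1.13 to 4.78), alveolar fibroblasts (3.105, 1.82 to 4.66) and aerocyte endothelium (2.46, 1.32 to 3.78). Those rest on 4, 6 and 8 FF UMIs. Venous endothelium (0.08) and ciliated cells (-0.26) had smaller ratios. Over cells of all depths, a higher KO value was thus not particular to AT2 cells. Values by depth are given below for alveolar fibroblasts, and AT1 cells and aerocytes were not split by depth. With the library's profile, scaled on the neutrophil markers, taken off, the AT2 ratio was 0.59 (0.22 to 0.95). In FF this scale rests on 28 marker UMIs in AT2 cells, and the 4 FF neutrophils held 2579. The share taken off venous endothelium was 0.175 in FF and 0.0291 in KO, although its neutrophil markers summed to 7.84 and 156 CPM. How well the scale follows free RNA was thus not tested. In the AT2 gate 9.13% of 9939 genes differed by 2-fold or more, 851 higher and 56 lower in KO, and *Hdc* was not among them. Of the 5 members, *Hdc*, *Hnmt* and *G0s2* had the 50 UMIs asked for here, and *Hrh1* and *Hrh2* did not. The median gene was at 0.20, and relative to it *Hdc* was at 0.52. Under a gate that asked for 8 times the library share of each marker, which kept 168 FF and 347 KO AT2 cells, the ratio was 0.34 (-0.04 to 0.72), and the genotypes then overlapped. That cut, too, was set within each library.

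Depth set the background against which these levels were read. In KO cells under 3000 UMIs, *Hdc* was 81.4 CPM (57.3 to 112.2) in AT2 cells, 44.8 CPM (27.7 to 68.4) in alveolar fibroblasts and 33.4 CPM (27.6 to 40.0) in endothelial cells of no subtype. In KO cells of at least 10000 UMIs it was 54.1 CPM (41.6 to 69.0), 1.19 CPM (0.03 to 6.61) and 3.96 CPM (2.42 to 6.11) in the same types. The FF values at that depth were 36.0 CPM (32.1 to 40.2) in 401 AT2 cells, 2.21 CPM in alveolar fibroblasts and 6.14 CPM in endothelial cells. In deep cells AT2 *Hdc* was thus far above alveolar fibroblasts and endothelial cells of no subtype in both genotypes. Venous endothelium at that depth held 31.18 CPM (18.48 to 49.29) in FF and 55.32 CPM (37.84 to 78.1) in KO. These intervals overlapped those of deep AT2 cells in both genotypes. The AT2 ratio at that depth was 0.59 (0.18 to 0.98) with 401 FF and 51 KO cells. The share of the AT2 ratio that rests on how the shallow KO cells were captured was not tested.

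**Figure D2:**
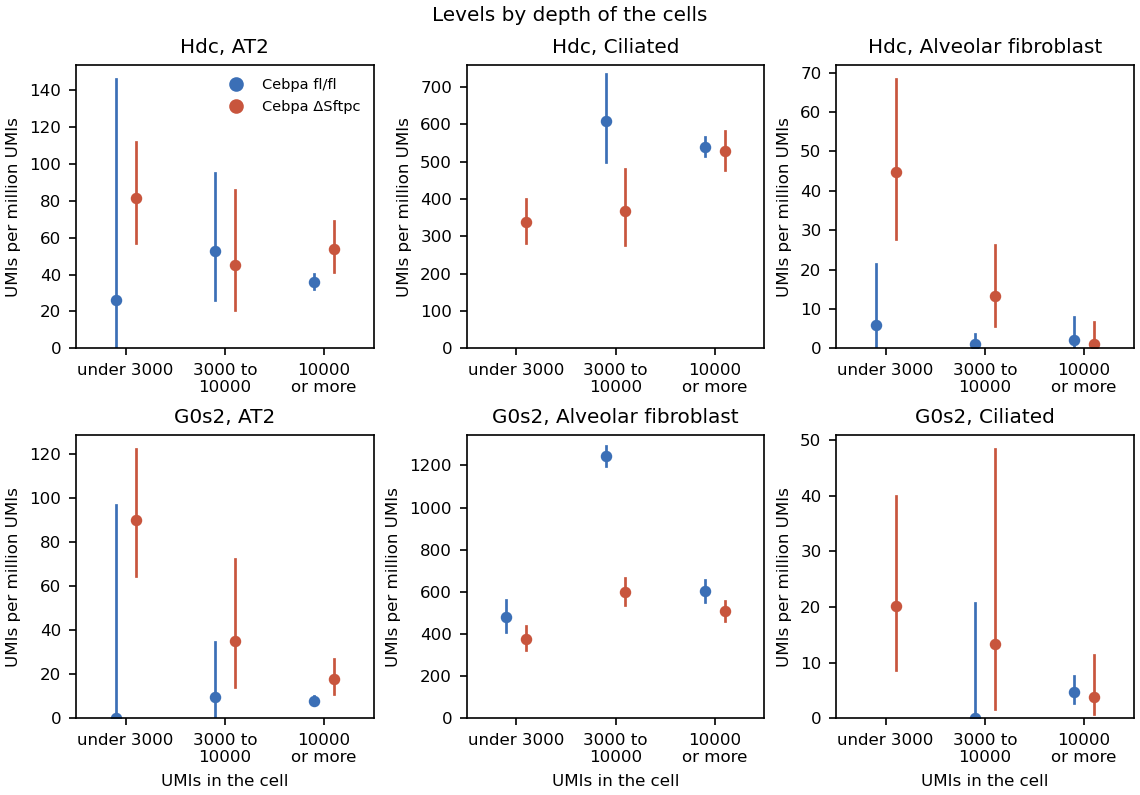
Level (CPM, linear axes that start at 0) of *Hdc* and *G0s2* in cells of under 3000, 3000 to 10000 and at least 10000 UMIs, in the *Cebpa* fl/fl (blue) and *Cebpa* ΔSftpc (red) libraries, with exact Poisson 95% intervals, for bins of at least 20 cells. *Hdc* in ciliated cells met at 539 and 529 CPM in the deepest bin, while *G0s2* in AT2 cells of the KO library fell from 90.2 CPM in the shallowest bin to 17.7 CPM in the deepest.

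Venous endothelium held 108 *Hdc* UMIs in FF (47.1 CPM) and 90 in KO (49.7 CPM, 40.0 to 61.1), in 56 of 348 and 49 of 245 cells. The log2 ratio was 0.08 (-0.34 to 0.50), and 1.57% of 8160 genes in that gate passed 2-fold. The neutrophil list summed to 18 UMIs in FF (7.84 CPM, 3 of 10 at 0) and 282 in KO (156 CPM, 0 of 10 at 0), with a marker UMI in 4.02% and 60.0% of cells, and *Ptprc* had 1 and 34 UMIs. Of the 9 basophil markers 6 were at 0 in FF venous cells and 2 in KO, *Mcpt8* among them in both. *Gata2* held 597 of the 606 UMIs of that list in FF and 458 of 474 in KO, where *Ccl9* held 8, *Cyp11a1* 3 and *Fcer1a* 2. The ciliated list summed to 75 and 55 UMIs. In venous cells with no UMI of *Ptprc* or a neutrophil marker (333 FF, 90 KO) the ratio was 0.55 (0.01 to 1.08). Other endothelium held less: aerocytes were at 1.11 CPM in FF and 6.11 CPM in KO, general capillary cells at 3.54 and 7.26 CPM, and arterial cells at 7.81 and 4.35 CPM. Among leukocytes of KO, nonclassical monocytes were next after ciliated cells at 140 CPM (121 to 162), from 185 UMIs in 28 of 142 cells. These monocytes also held 115 *Cxcr2* and 235 *G0s2* UMIs, and all 10 neutrophil markers were above 0 in them, so neutrophil RNA moved with this value, and its part was not tested.

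*G0s2*, the lipase inhibitor, had 5004 UMIs in FF and 7046 in KO. Of these, 65.0% were in alveolar fibroblasts in FF, and 58.1% in neutrophils in KO, where alveolar fibroblasts held 13.7%. KO neutrophils were the highest type, at 1685 CPM (1633 to 1737) from 4091 UMIs, with a UMI in 396 of 630 cells. FF neutrophils were at 1074 CPM (515 to 1974), from the single cell named above. Basophils held no *G0s2* UMI in FF and 8 in KO (22.0 CPM, 9.5 to 43.3), so the granulocytes that shared a high *Hdc* level did not share *G0s2*.

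Alveolar fibroblasts and pericytes held the next *G0s2* levels among gates of at least 30 cells, and most mesenchymal types were lower in KO. Each gate marker of alveolar fibroblasts, pericytes and adventitial fibroblasts was lower in KO as well. In alveolar fibroblasts *Inmt* was at 6165 CPM in FF and 3524 CPM in KO, and *Npnt* at 1688 and 1318 CPM. In pericytes *Cox4i2* was at 3313 and 1283 CPM, and *Pdzd2* at 4247 and 2946 CPM. What this means for the *G0s2* ratios was not tested. In KO, nonclassical monocytes (178 CPM, 235 UMIs) came after pericytes, with overlapping intervals, and above adventitial fibroblasts. Alveolar fibroblasts, the lipid-storing cells next to AT2 cells, held 3254 UMIs in FF (990 CPM, 956 to 1024) and 964 in KO (504.5 CPM, 473 to 537), a log2 ratio of -0.97 (-1.08 to -0.87). In this gate 7.87% of 9453 genes passed 2-fold, and *G0s2* was just short of it, passing it with the looser gate (-1.18) and with the gate at 8 times the library share (-1.15). The richest FF cell held 107 UMIs, 3.29% of the total. The size of this difference depended on depth: the ratio was -0.35 under 3000 UMIs, -1.05 between 3000 and 10000, and -0.25 (-0.44 to -0.07) in the 71 FF and 57 KO cells of at least 10000 UMIs, where the levels were 604 and 508 CPM. Pericytes held 357 CPM (324 to 393) in FF and 214 CPM (179 to 254) in KO, a ratio of -0.74 (-1.03 to -0.45), with 13.2% of 5926 genes past 2-fold. In pericytes of 3000 to 10000 UMIs the ratio was -0.24 (-0.63 to 0.14), and in the 15 cells per library of at least 10000 it was 0.07 (-0.62 to 0.78). Adventitial fibroblasts, which surround vessels and airways, were at 128 CPM (118 to 139) and 94.6 CPM (82.4 to 108.0), a ratio of -0.44 (-0.67 to -0.21) and of -0.40 (-0.73 to -0.07) in cells of at least 10000 UMIs, and 4.1% of 10076 genes there passed 2-fold. Ductal myofibroblasts were at 74.8 and 77.2 CPM with overlapping intervals.

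**Figure D3:**
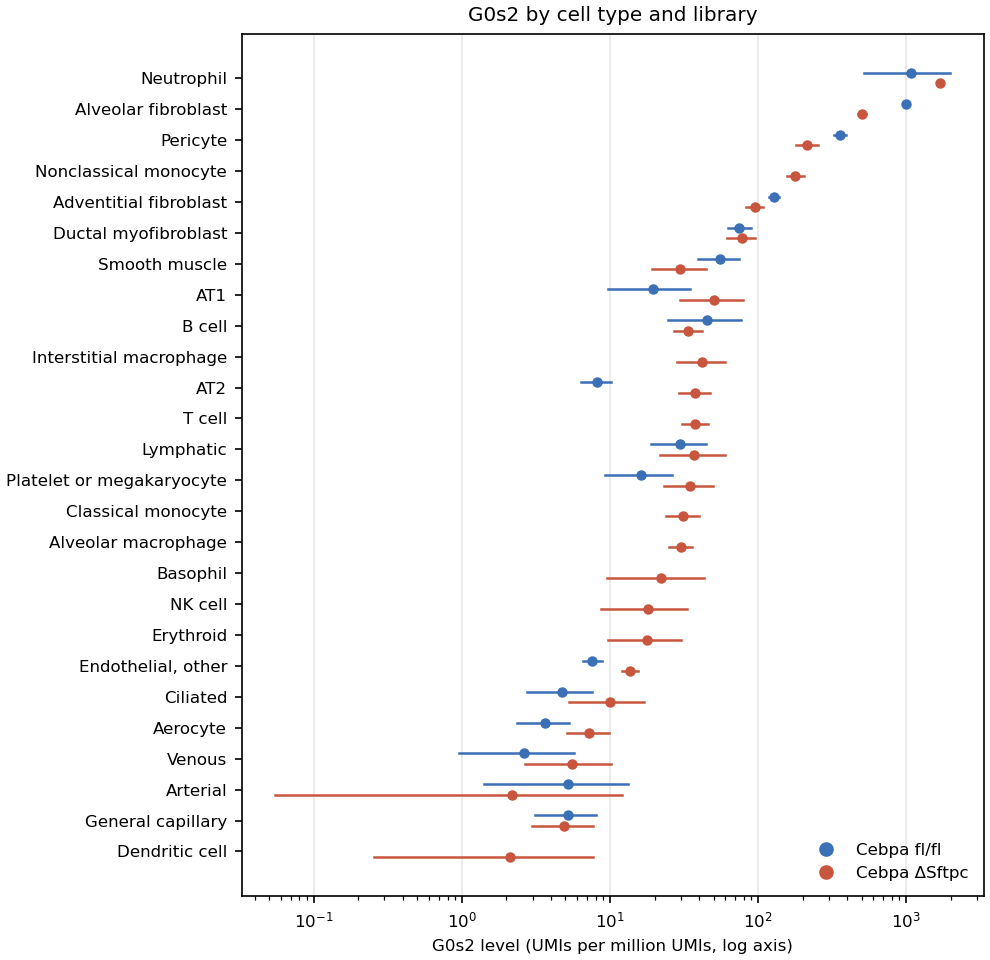
*G0s2* level in each gated cell type in CPM on a log axis, in the *Cebpa* fl/fl (blue) and *Cebpa* ΔSftpc (red) libraries, for gates of at least 30 cells plus neutrophils, with exact Poisson 95% intervals. Neutrophils and alveolar fibroblasts stood highest, and AT2 cells moved from 8.12 CPM in FF to 37.6 CPM in KO.

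In AT2 cells *G0s2* was low in FF and higher in KO. There were 74 UMIs in 44 of 453 FF cells (8.12 CPM, 6.38 to 10.19) and 69 UMIs in 47 of 416 KO cells (37.6 CPM, 29.2 to 47.5), a log2 ratio of 2.21 (1.71 to 2.70). This was past 2-fold, as were 9.13% of the genes tested in the gate, and relative to the median gene it was 2.01. Of the KO cells with a UMI, 37 held exactly 1, 9 held 2 to 4, and a single cell held 13. Without the richest cell of each library the ratio was 2.07 (1.53 to 2.60). After thinning to 1000 UMIs, 0.671% (0.14 to 1.95) of FF and 6.765% (4.34 to 9.98) of KO AT2 cells had a UMI, against 0.472% and 1.10% of ciliated cells and 0.761% and 2.21% (1.78 to 2.71) of endothelial cells of no subtype. Among 26 KO gates of at least 30 cells AT2 cells came ninth by level, with intervals that overlapped those of AT1 cells (50.1 CPM), T cells (37.4 CPM), lymphatic cells (37.1 CPM), platelets and megakaryocytes (34.6 CPM) and B cells (33.7 CPM). AT1 cells were also higher in KO, at 19.4 CPM (9.67 to 34.7) in FF and 50.1 CPM (29.7 to 79.2) in KO, a ratio of 1.37 (0.21 to 2.60) from 11 and 18 UMIs.

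Most of the KO value came from shallow cells. The 326 KO AT2 cells under 3000 UMIs held 41 of the 69 *G0s2* UMIs, at 90.2 CPM (64.7 to 122.4), while endothelial cells of no subtype at that depth held 44.5 CPM (37.8 to 52.0) and ciliated cells 20.3 CPM (8.8 to 40.0). In AT2 cells of at least 10000 UMIs, *G0s2* was 8.12 CPM (6.35 to 10.23) in FF and 17.7 CPM (11.0 to 27.1) in KO, a ratio of 1.13 (0.35 to 1.85). Endothelial cells at that depth held 18.9 CPM (14.9 to 23.6) in FF and 3.96 CPM (2.42 to 6.11) in KO, so FF AT2 cells lay below and KO AT2 cells above them. AT2 cells of KO held 31 UMIs of *Csf3r*, a neutrophil receptor gene, where FF held 1. Their 2.23 *G0s2* UMIs per *Csf3r* UMI compare with 1.07 in KO neutrophils, 1.24 in KO endothelial cells of no subtype and 2.67 in KO basophils. Per UMI of *Cxcr2*, another neutrophil marker, the values were 6.27 in AT2 cells, 1.62 in neutrophils, 3.73 in those endothelial cells and 0.087 in basophils. The size of the gap to neutrophils thus depended on the marker. In AT2 cells with no UMI of *Ptprc* or a neutrophil marker, not matched for depth, the ratio was 1.80 (0.74 to 2.73), from 73 FF and 11 KO UMIs. Taking off the library's profile, scaled on the neutrophil markers, left 28.5 of 74 UMIs in FF and 29.2 of 69 in KO, a ratio of 2.53 (1.73 to 3.32). The limits of that scale given for *Hdc* hold here too. Alveolar fibroblasts (990 CPM in FF, 504.5 CPM in KO) and pericytes were also rich in *G0s2*, and their gate markers were not read in AT2 cells. *Hsd11b1*, a gene highest in those types, was at 5.60 CPM in FF and 22.9 CPM in KO AT2 cells. It was at 10.3 and 11.5 CPM in ciliated cells and at 42.4 CPM in KO neutrophils. The part of fibroblast or pericyte RNA in the AT2 *G0s2* values was not tested. Ciliated cells, the other epithelial type of interest, held 17 UMIs in FF (4.74 CPM, 2.76 to 7.59) and 13 in KO (9.94 CPM, 5.29 to 17.00), with overlapping intervals.

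**Figure D4:**
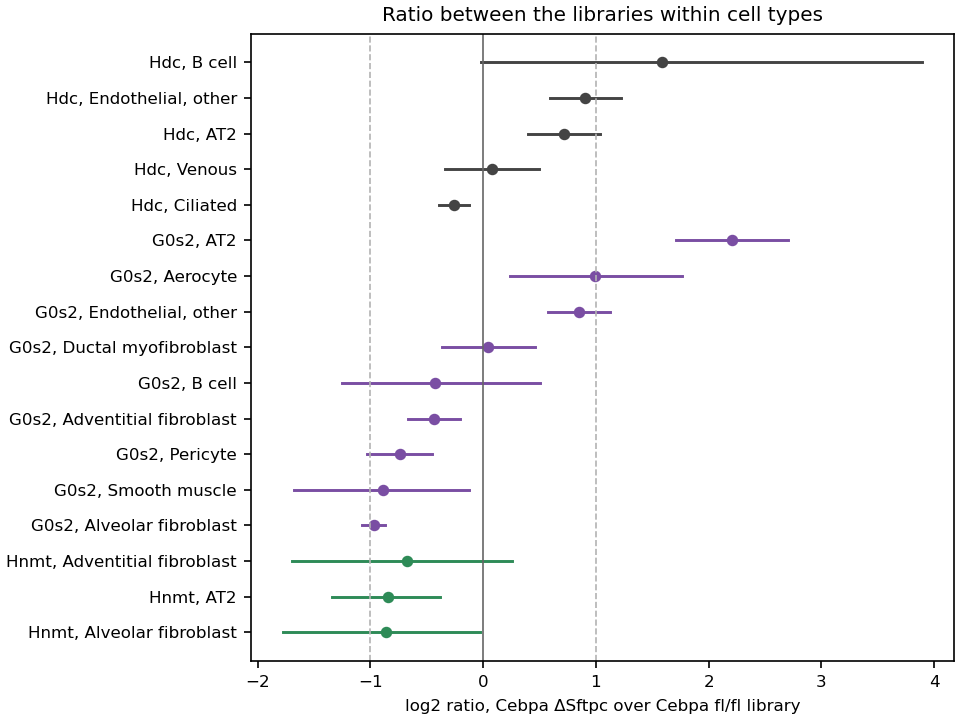
Log2 ratio of the *Cebpa* ΔSftpc over the *Cebpa* fl/fl library for *Hdc*, *G0s2* and *Hnmt* in cell types with at least 30 cells in each library and at least 50 UMIs of the gene in both together. Bars are exact conditional binomial 95% intervals that cover counting error only, and dashed lines mark 2-fold. *G0s2* was higher in KO in AT2 cells (2.21) and lower in alveolar fibroblasts (-0.97), and *Hnmt* was lower in AT2 cells (-0.84).

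*Hnmt* (minus strand of chr2:24002910-24049394, 7 exons), the intracellular histamine methyltransferase, was highest in AT2 cells in FF among gates of at least 30 cells. AT2 cells held 374 of 529 UMIs (70.7%), at 41.0 CPM (37.0 to 45.4), and 245 of 453 cells had at least 1. Alveolar fibroblasts followed at 15.2 CPM (11.3 to 20.1) and adventitial fibroblasts at 9.05 CPM (6.49 to 12.27), with intervals that overlapped each other but not that of AT2 cells. Basophils held none in either library, and venous endothelium held none in 348 and 245 cells. In KO, AT2 cells held 42 of 206 UMIs, at 22.9 CPM (16.5 to 30.9), next to neutrophils at 23.1 CPM (17.4 to 29.9, 56 UMIs).

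The *Hnmt* log2 ratio in AT2 cells was -0.84 (-1.34 to -0.38), short of 2-fold, and -1.05 relative to the median gene, past it. It was also past 2-fold with the looser gate, and in cells with no UMI of *Ptprc* or a neutrophil marker (-1.37, -2.82 to -0.23). The latter cells held 6 *Hnmt* UMIs in KO and were not matched for depth. In cells of at least 10000 UMIs it was -0.75 (-1.35 to -0.20), from 365 UMIs in 401 FF cells (41.2 CPM, 37.1 to 45.6) and 29 UMIs in 51 KO cells (24.5 CPM, 16.4 to 35.2), whose intervals did not overlap. KO AT2 cells under 3000 UMIs held 22.0 CPM (10.6 to 40.5), an interval that overlapped the one in deep cells. Alveolar fibroblasts were at 15.2 CPM in FF and 8.37 CPM (4.79 to 13.60) in KO, a ratio of -0.86 (-1.77 to -0.02), and adventitial fibroblasts at -0.67 (-1.70 to 0.25).

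**Figure D5:**
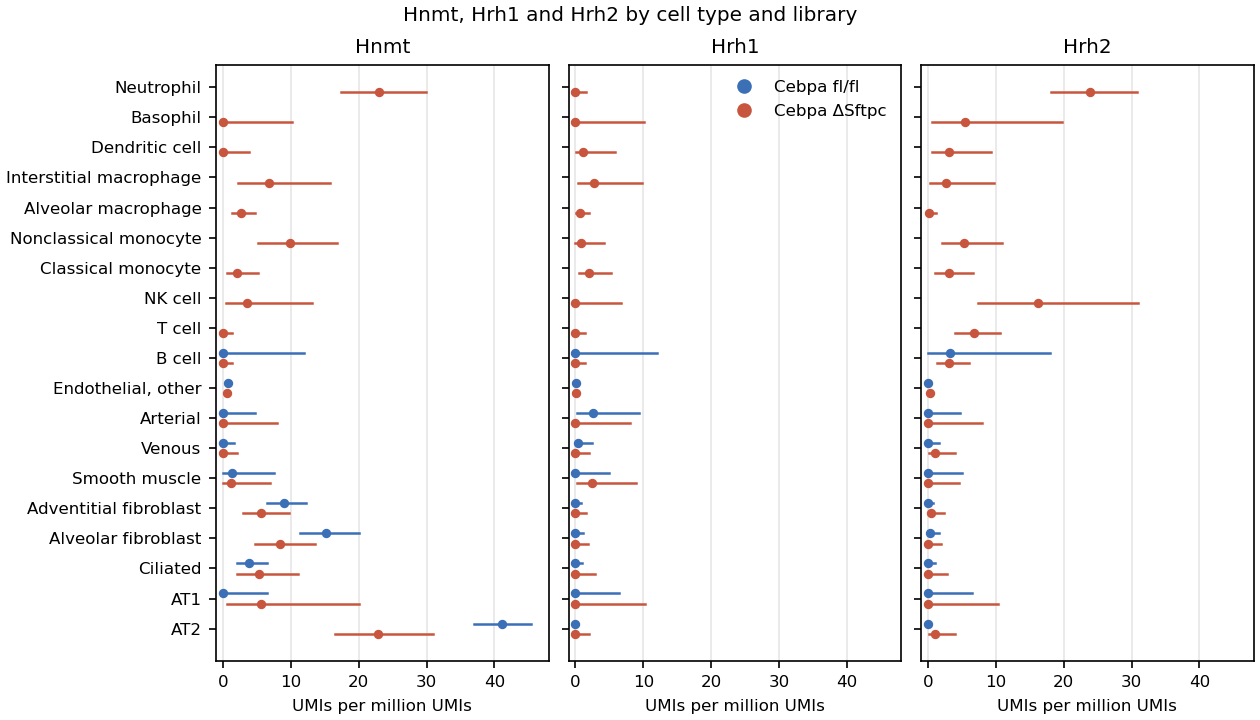
*Hnmt*, *Hrh1* and *Hrh2* levels in CPM on linear axes, for gates of at least 30 cells, in the *Cebpa* fl/fl (blue) and *Cebpa* ΔSftpc (red) libraries, with exact Poisson 95% intervals. *Hnmt* was highest in FF AT2 cells at 41.0 CPM, *Hrh2* in KO neutrophils at 23.9 CPM, and *Hrh1* stayed under 3 CPM in each gate shown.

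The receptors were scarce. *Hrh2* (plus strand of chr13:54192129-54236180), the receptor through which histamine raises cyclic AMP, had 7 UMIs in FF and 135 in KO. KO neutrophils held 58 of them (23.9 CPM, 18.1 to 30.9) in 48 cells, NK cells 9 (16.3 CPM, 7.4 to 30.9), T cells 18 (6.74 CPM, 3.99 to 10.65) and B cells 8 (3.07 CPM, 1.32 to 6.04). Endothelial cells of no subtype, as a type in which few were found, held 5 UMIs in 4438 cells (0.26 CPM, 0.08 to 0.60). FF AT2 and ciliated cells held 0 *Hrh2* UMIs, which allows up to 0.329 CPM in AT2 cells at 3 counts. FF leukocytes were too few for a comparison: T cells held 2 UMIs in 27 cells and B cells 1 in 46.

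*Hrh1* (plus strand of chr6:114397936-114483296), the receptor of smooth muscle and endothelium in allergic reactions, had 7 UMIs in FF and 19 in KO. No gate held more than 4. KO classical monocytes held 4 (2.05 CPM, 0.56 to 5.24), alveolar macrophages 3, and smooth muscle 2 in 119 cells, and FF arterial cells held 2 in 148 cells. No order of types could be read from these counts, and *Hrh1* was at 0 in AT2 cells, ciliated cells and neutrophils of both libraries.

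Other histamine genes came from a list of 15, with types ranked over gates of at least 30 cells. Diamine oxidase, *Aoc1*, was found mostly in ciliated cells, where *Hdc* was also high: ciliated cells held 586 of 619 UMIs in FF (163 CPM) and 163 of 200 in KO (125 CPM), a ratio of -0.39 (-0.65 to -0.14), against -0.13 for the median gene. *Maob*, a monoamine oxidase, was highest in ductal myofibroblasts (206 CPM in FF, 126 in KO) and then in AT2 cells (67.5 and 59.3 CPM), and *Maoa* in general capillary cells (167 and 144 CPM). *Slc22a3*, an organic cation transporter that carries histamine, was highest in alveolar fibroblasts, at 21.3 CPM in FF and 14.1 CPM in KO. In AT2 cells 6 of the 15 had at least 50 UMIs and 0 of them passed 2-fold in either direction, with a median log2 ratio of -0.04 against 0.20 over all genes tested. In ciliated cells 1 of 7 tested was higher (*Maoa*, 1.03) and none lower, with a median of -0.07 against -0.13. Past 2-fold were 0 of 6 in alveolar fibroblasts, 0 of 5 in adventitial fibroblasts, 0 of 4 in venous cells and 1 of 2 in pericytes (*Maoa*, higher). Over all genes tested the shares were 9.13% in AT2 cells, 7.38% in ciliated cells, 7.87% in alveolar and 4.1% in adventitial fibroblasts, 1.57% in venous cells and 13.2% in pericytes, and the lists were too small to read against them.

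A list of 13 genes of lipid droplets and their breakdown was read beside *G0s2*, with types ranked over gates of at least 30 cells. In AT2 cells 7 were tested, 1 was past 2-fold higher and none lower, with a median of 0.20, the same as over all genes, of which 9.13% passed 2-fold. The gene was *Hilpda*, which encodes another inhibitor of the same lipase, at 27.3 CPM in FF and 83.8 CPM in KO (log2 ratio 1.62, 1.32 to 1.91). Its ratio was 1.66 in ciliated cells and 1.68 in alveolar fibroblasts, and it was highest in endothelium in both libraries, at 700 CPM in FF arterial cells. The part of endothelial RNA in these ratios was not tested. The lipase gene *Pnpla2* itself was at 91.3 and 89.8 CPM in AT2 cells (-0.02, -0.27 to 0.22), and *Abhd5*, which encodes its activator, at 77.7 and 57.1 CPM (-0.44, -0.75 to -0.15). In alveolar fibroblasts 1 of 7 tested passed 2-fold (*Hilpda*), beside 7.87% of all genes. The median there was 0.41 against -0.01 over all genes, and *Pnpla2* was at 0.41 (-0.01 to 0.83). Ciliated cells had 2 of 9 higher (*Hilpda* and *Mgll*, a monoglyceride lipase gene, at 1.99), pericytes 1 of 6 (*Mgll*), and adventitial fibroblasts and venous cells 0 of 7 each, beside shares over all genes of 7.38%, 13.2%, 4.1% and 1.57%. Of the genes for droplet proteins, *Plin5* and *Cidea* were mostly in ciliated cells in FF, with 234 of 280 and 241 of 257 UMIs. *Cidec* was mostly in alveolar macrophages in KO, with 1030 of 1271 UMIs, where 4 FF and 531 KO cells passed that gate.

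Genes with a like pattern were sought over 42 sums of type and library with at least 30 cells, among 15102 genes, by Pearson's r of log2(CPM + 10). Points from 1 library share its depth and free RNA, so r is a description. For *Hdc* the first 5 were *Slc16a3* (0.78), *Gm36738* (0.78), *Fosl1* (0.74), *Adam8* (0.74) and *Dedd2* (0.74). *Slc16a3*, a lactate transporter gene, was at 482 CPM in KO neutrophils and 94.0 CPM in FF ciliated cells, but had 2 UMIs in FF AT2 cells, so it did not follow *Hdc* there. *Gm36738*, a long noncoding RNA gene, was at 108 CPM in FF ciliated and 24.3 CPM in FF AT2 cells. For *G0s2* they were *Hsd11b1* (0.79), *Arhgap24* (0.78), *Steap4* (0.74), *Snai1* (0.74) and *Lrp1* (0.73). *Hsd11b1*, which encodes the enzyme that regenerates active glucocorticoid, lies on the same strand, 8086 bases from *G0s2*, at chr1:193221634-193264075 (GRCm38). It was at 1151 CPM (1115 to 1188) in FF and 648.5 CPM (613 to 686) in KO alveolar fibroblasts, and at 806 and 402 CPM in pericytes. In AT2 cells it went from 51 UMIs in FF (5.60 CPM, 4.17 to 7.36) to 42 in KO (22.9 CPM, 16.5 to 30.9). In KO neutrophils, the highest type for *G0s2*, it was at only 42.4 CPM (34.6 to 51.4).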

How the data were processed

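The files deposited by the authors hold raw UMI counts per gene and cell barcode from 10X Genomics 3′ libraries, aligned to mm10 with Cell Ranger. Per the labels the version was 6.1.1, and the file headers name 5.0.0. The labels speak of sorting and the methods of whole-lung suspensions. The values were not normalized. The deposited barcodes were already a selected set of cells, of which 11487 of 11721 in FF and 13238 of 13373 in KO met the limits used here. A cell was kept from 200 genes upward if mitochondrial genes took no more than 20% of its UMIs. A marker counted as present in a cell if its share of the cell's UMIs was at least 4 times its share of the library. That share was taken within each library, so the cut for a marker differed between FF and KO. A type was given from 3 markers present (2 for lists of 4 markers) and the highest share of its list. Cells with at least 3 of 5 endothelial markers and no other gate were called endothelial cells of no subtype. The form of the gate was settled after seeing the data, and the members and lists were chosen with earlier results of these data known. Named genes were the 5 members, both pathway lists, markers of *Hdc*-rich types and the 5 genes most like *Hdc* and *G0s2*.

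UMIs were summed over the cells of a gate and given as CPM (UMIs per 1000000 UMIs of the gate). Levels carry exact Poisson intervals, cell shares Clopper-Pearson intervals and log2 ratios exact conditional binomial intervals, with sums under 3 counts set to 3. All are 95% intervals. With 1 library per genotype no test was run, and a gene was called at 2-fold among genes with at least 50 UMIs in the gate. For shares, cells were thinned to 1000 UMIs, without the 6 FF and 76 KO AT2 cells and the 3 FF and 66 KO ciliated cells below that. Doublets were kept. The analysis ran in Python 3.11.15 with scanpy 1.11.5 for doublet scores, scipy 1.17.1 for intervals, numpy 2.4.6 and pandas 2.3.3, and figures were drawn with matplotlib 3.10.9. Ratios and gates were tried on simulated data. For the gates these were drawn from FF profiles that the gate had already chosen (AT2, ciliated, venous and alveolar fibroblast). Recovery was thus favoured, and KO gates were not simulated. Thinning was tried on FF cells. Positions are those of GENCODE for GRCm38. Alternatives covered filters, gates, doublets, scaling, per-cell means and free RNA.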

Additional observations from a re-analysis of the deposited data

Results flagged for a closer look

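*G0s2* differed in direction between cell types: the log2 ratio of KO over FF was 2.21 in AT2 cells and -0.97 in alveolar fibroblasts, 3.18 apart. This pair, like the one for *Hdc* below, was picked as the highest and lowest ratio, which favours a wide gap. In cells of at least 10000 UMIs the *G0s2* ratios of these types were closer, at 1.13 (0.35 to 1.85) and -0.25 (-0.44 to -0.07). Over 9 types with enough cells and UMIs, intervals lay above 0 in 3 types (AT2 cells, aerocytes and endothelial cells of no subtype) and below 0 in 4 (alveolar and adventitial fibroblasts, smooth muscle and pericytes). In endothelial cells of no subtype the ratio was 2.31 (1.67 to 3.01) under 3000 UMIs and -2.26 (-3.04 to -1.53) at 10000 UMIs or more.

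*Hdc* also differed, with a log2 ratio of 0.91 in endothelial cells of no subtype and -0.26 in ciliated cells, 1.17 apart. In endothelial cells of at least 3000 UMIs the ratio was 0.19 (-0.27 to 0.64) up to 10000 UMIs and -0.63 (-1.56 to 0.27) above. With 1 library per genotype, neither difference between types was tested.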

How the results depend on the processing

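No paired analysis was possible because each genotype has 1 library, and no replicate was left out for the same reason. The 8 log2 ratios recomputed under the alternatives (*Hdc*, *G0s2* and *Hnmt* in AT2 cells, *Hdc* in ciliated and venous cells, *Hdc* and *G0s2* in neutrophils, *G0s2* in alveolar fibroblasts) kept their direction, and the cause of the moves below was not tested. Within single depth bins some of the 8 did turn, with intervals that include 0. From 3000 to 10000 UMIs *Hdc* was -0.23 in AT2 cells and -0.09 in venous cells. In neutrophils under 3000 UMIs *Hdc* was -0.50 and *G0s2* -0.29, but this sign came from the floor. The 3 FF cells held 0 UMIs of either gene, set to 3 counts, while KO cells held 705 and 815 CPM. The measured neutrophil levels thus did not turn. Ratios outside the 8 turned too: at 10000 UMIs or more *G0s2* was -2.26 and *Hdc* -0.63 in endothelial cells of no subtype (0.85 and 0.91 over all cells). At that depth *G0s2* in pericytes was 0.07 (-0.74 over all cells).

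In cells of at least 3000 UMIs, *G0s2* in AT2 cells was 1.31 and *Hdc* in ciliated cells -0.11. In cells of at least 10000 UMIs, added after seeing the data, these were 1.13 and -0.028, *G0s2* in alveolar fibroblasts was -0.25 and *Hdc* in venous cells 0.83. The stricter gate gave 1.67 for *G0s2* in AT2 cells. The looser gate gave -0.42 for ciliated *Hdc*, 2.32 for neutrophil *G0s2* and -1.18 for *G0s2* in alveolar fibroblasts. Median-of-ratios scaling gave 3.435 and 3.24 for *Hdc* and *G0s2* in neutrophils, where most genes of the 4 FF cells were at the floor. The mean of per-cell CPM gave 1.05 for *Hdc* and 3.20 for *G0s2* in AT2 cells, -0.62 for ciliated *Hdc* and 1.84 for neutrophil *G0s2*. A gate at 8 times the library share, also added, gave 0.34 for *Hdc* and 3.10 for *G0s2* in AT2 cells and -1.15 for *G0s2* in alveolar fibroblasts. Cells without *Ptprc* or neutrophil marker UMIs, added too, gave -1.37 for *Hnmt* in AT2 cells, -1.19 for *G0s2* in alveolar fibroblasts and 0.55 for venous *Hdc*.

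A minimum of 10 in place of 50 UMIs put 15.6% of genes past 2-fold in AT2 cells, 14.3% in ciliated cells and in alveolar fibroblasts, 9.35% in adventitial fibroblasts and 6.52% in venous cells. Scrublet's automatic threshold called no cell, so the 8% with the highest scores were left out, which moved no ratio past its interval. Free RNA was not subtracted in neutrophils, whose markers set its scale.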
